A study of Mus musculus with 14 samples.

Results

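The genes described here are the splicing factor and hnRNP genes, 56 of the 21896 protein-coding mouse genes of the RefSeq table used. A gene was taken when its symbol starts with Srsf, Hnrnp, Snrp, Sf3a, Sf3b or U2af, and its H3K9ac was read from the deposited peaks that reach within 1000 bp of either of its ends, which made 878 of all 357969 peaks. They fall into 11 SR protein genes (Srsf), 21 hnRNP genes, 12 genes of Sm proteins and other proteins of the U snRNPs (Snrp), 9 genes of the SF3A and SF3B complexes and 3 U2AF genes.

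The peaks come from chromatin immunoprecipitation with an antibody to acetylated lysine 9 of histone H3 (AcH3K9, abcam ab10812) in regenerating liver of male C57BL6/J mice aged 2-3 months, harvested 12 h after partial hepatectomy, the surgical removal of part of the liver. There are 12 libraries, 6 titled d22 and 6 titled pbs. The series sets glucose-treated against control mice, but its labels disagree: the d22 libraries carry the vehicle label (1/2 strength PBS) and the pbs libraries the dextrose label, which both pooled inputs carry too. Libraries are therefore called by their titles, differences are given as d22 minus pbs, and no treatment is read from them. Nothing in the labels says whether libraries came from separate mice, so each p-value is set against a spread that could be technical only.

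Splicing removes introns from pre-mRNA. U1 snRNP recognises the start of an intron, the U2AF dimer binds its end, and U2 snRNP, which carries SF3A and SF3B, then settles on the branch point. The snRNPs are built on a ring of Sm proteins. SR proteins bind exonic enhancers and mostly favour the use of nearby splice sites, and hnRNPs coat nascent transcripts and often oppose them. Most of these genes are expressed in nearly every tissue, and H3K9 acetylation typically marks the nucleosomes that flank the starts of transcribed genes.

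The libraries held 6343891 to 13259411 tags after filtering, and d22 replicate 4 stood apart with the most peaks (44585, against 26352 to 30780 in the others). It also had the fewest tags, but pbs replicate 3 had nearly as few (6385610). All 10 hepatocyte marker genes listed had a region shared by all 12 libraries. The macrophage, endothelial, stellate cell, cholangiocyte, lymphocyte, neutrophil and erythroid lists had such a region at 0 or 1 gene each. Each title group was called against its own pooled input (12526421 tags for d22, 10409931 for pbs), so input and group cannot be told apart in peak calls, lengths, tags in peaks or fold enrichment. In whole liver, a change in the makeup of cells and a change per cell cannot be told apart either.

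Nearly all of the splicing factor and hnRNP genes carried H3K9ac in every library. A peak of the library's own lay at an end of 51 of the 56 genes in all 12 libraries, while 45.8% of all protein-coding genes had one in all 12. All 9 SF3 genes and all 3 U2AF genes were among the 51, with 10 of 11 SR genes, 18 of 21 hnRNP genes and 11 of 12 Snrp genes. Between 51 and 53 of the genes had a peak in any single library. The 5 exceptions were Srsf12, Hnrnph1, Hnrnpf, Snrpn and Hnrnpa1l2-ps2. The last 3 had no peak at an end in any library, as had 40.2% of all protein-coding genes.

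In 3 of the 5 exceptions all 12 libraries had peaks at other starts of the gene. Hnrnph1, which encodes a protein that binds runs of G, had a peak at its annotated end in 2 libraries, 1 of each title. Its peaks sat inside the gene, over RefSeq starts from chr11:50376990 onwards, and there all 12 libraries had one, in a region at chr11:50376194-50379838 that just reaches the window. Hnrnpf, a close relative of Hnrnph1, had no peak at its most upstream start (chr6:117900340) and peaks in all 12 libraries at its 3 later starts. Its main region, chr6:117904461-117910609, spans the starts at 117906782 and 117907804, and a further region, chr6:117915471-117921400, spans the start at 117917294. Over the main region of Hnrnpf the d22 libraries held 225 to 300 CPM (median 249) and the pbs libraries 223 to 270 CPM (median 244). Here CPM is tags per 1000000 tags in the regions shared by all 12 libraries, scaled by TMM. The groups overlapped, with a log2 difference of 0.04 ± 0.08 (SE, n = 6 and 6).

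Snrpn encodes SmN, a relative of the core Sm protein SmB, from an imprinted locus. It had no peak at its 3 upstream starts and a small one in all 12 libraries at its most downstream start, chr7:60005199, where the region (chr7:60003672-60005180) begins beside the start and the start itself lay in no peak. That region held 13.9 to 28.9 CPM in d22 (median 24.1) and 12.6 to 26.2 CPM in pbs (median 22.5). Both group means (23.1 and 21.2 CPM) were below the lowest mean of the 52 genes tested (Snrpf, 26.1 CPM). Srsf12, an SR gene, had a peak in 8 libraries, 5 d22 and 3 pbs. It was missing from d22 replicate 5 and pbs replicates 2, 3 and 5. Where called, the Srsf12 peaks (region chr4:33209029-33210019) held 11 to 38 tags over 472 to 764 bp. The split of 5 and 3 libraries did not pass a two-sided Fisher exact test (p = 0.545, adjusted p = 1), and of all 16871 regions called in 2 to 10 libraries 0% passed that test, with 99 at an unadjusted p under 0.05. With 6 libraries a group, even a complete split between the titles could pass the adjustment only if many regions split so. The lack of calls therefore says little about occupancy. Hnrnpa1l2-ps2, whose name marks it as an Hnrnpa1-like pseudogene, spans 1165 bp and had no peak. How the alignment treated reads shared between such copies is not given in the sources used here.

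Starts with and without a peak are set side by side in their sequence here, for 5 genes. In the 250 bases before the start, the CG pairs differed at Hnrnpf (6 without and 18 with a peak) and hardly at Snrpn (2 without and 3 beside a peak). With the 50 bases after the start included, Hnrnpf had 7 and 24 pairs and Snrpn 2 and 7. The RefSeq promoter table (GRCm38.p6) holds 49 of the 56 genes, with 250 bases before and 50 after each start. The sequences below are the 250 bases before a start, 5′ to 3′ on the gene's strand, with each CG pair in capitals. They were chosen after the values were seen. Hnrnpf is shown at its upstream start, without a peak (chr6:117900090-117900339, plus strand, 6 CG pairs), and at the next start, with a peak in all 12 libraries (chr6:117906532-117906781, plus strand, 18 CG pairs). Snrpn is shown at its most upstream start, without a peak (chr7:60450178-60450427, minus strand, 2 CG pairs), and at its most downstream start, beside the small peak (chr7:60005200-60005449, minus strand, 3 CG pairs). Srsf12 (chr4:33209022-33209271, plus strand, 19 CG pairs) is the gene with the intermittent peak. Srsf3 (chr17:29032410-29032659, plus strand, 35 CG pairs) and Hnrnpa1 (chr15:103240147-103240396, plus strand, 11 CG pairs) are the genes with the highest and the lowest log2 tag difference between titles, given further on.
Hnrnpf upstream start: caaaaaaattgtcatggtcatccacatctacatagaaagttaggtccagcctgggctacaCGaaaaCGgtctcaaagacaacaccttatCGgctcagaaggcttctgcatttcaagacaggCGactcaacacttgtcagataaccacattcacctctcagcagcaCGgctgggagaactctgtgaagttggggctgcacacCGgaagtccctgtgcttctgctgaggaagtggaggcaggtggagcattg
Hnrnpf next start: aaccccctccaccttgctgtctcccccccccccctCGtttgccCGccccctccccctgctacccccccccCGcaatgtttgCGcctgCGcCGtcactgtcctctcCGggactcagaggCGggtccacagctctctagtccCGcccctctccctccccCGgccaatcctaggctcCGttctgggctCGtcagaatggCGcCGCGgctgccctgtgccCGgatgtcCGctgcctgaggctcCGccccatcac
Snrpn upstream start: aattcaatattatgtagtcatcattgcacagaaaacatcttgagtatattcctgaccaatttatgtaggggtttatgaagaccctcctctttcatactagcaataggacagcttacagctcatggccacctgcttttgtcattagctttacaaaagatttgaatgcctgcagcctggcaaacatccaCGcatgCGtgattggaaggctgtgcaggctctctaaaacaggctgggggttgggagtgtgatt
Snrpn downstream start: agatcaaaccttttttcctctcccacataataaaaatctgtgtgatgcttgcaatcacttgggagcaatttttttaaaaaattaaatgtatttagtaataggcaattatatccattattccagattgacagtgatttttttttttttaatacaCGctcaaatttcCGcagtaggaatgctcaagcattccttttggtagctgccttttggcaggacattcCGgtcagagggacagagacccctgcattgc
Srsf12: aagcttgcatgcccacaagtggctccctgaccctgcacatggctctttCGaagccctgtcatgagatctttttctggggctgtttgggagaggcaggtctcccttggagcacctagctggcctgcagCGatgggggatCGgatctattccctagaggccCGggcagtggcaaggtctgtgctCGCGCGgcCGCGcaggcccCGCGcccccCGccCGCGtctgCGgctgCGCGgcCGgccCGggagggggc
Srsf3: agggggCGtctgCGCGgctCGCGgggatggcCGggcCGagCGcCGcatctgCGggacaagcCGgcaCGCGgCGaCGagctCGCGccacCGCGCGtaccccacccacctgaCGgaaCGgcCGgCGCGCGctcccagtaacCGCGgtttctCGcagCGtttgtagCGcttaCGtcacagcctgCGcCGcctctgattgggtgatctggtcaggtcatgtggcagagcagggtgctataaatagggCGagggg
Hnrnpa1: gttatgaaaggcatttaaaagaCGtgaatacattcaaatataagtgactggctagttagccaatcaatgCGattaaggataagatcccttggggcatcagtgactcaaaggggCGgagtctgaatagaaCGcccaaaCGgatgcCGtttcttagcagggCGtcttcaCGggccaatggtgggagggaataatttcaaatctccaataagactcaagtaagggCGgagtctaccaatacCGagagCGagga

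The starts of these genes are rich in CG pairs. Taking the most upstream start of each gene and all 300 bases, the 49 genes had a median of 25 CG pairs, against 13 over 17491 protein-coding genes, 22 over the 8366 with a region in all 12 libraries and 3 over the 7005 with no peak at an end. Of the 45 genes of the families with a region in all 12 libraries and a promoter, 44 had 13 or more, and Snrpa1, which encodes the U2 snRNP protein A′, had 7 and still a peak in all 12. Srsf12 had 26 pairs and a peak in only 8 libraries, so pairs alone do not sort the genes. SR genes had a median of 32, hnRNP genes 28, SF3 genes 23 and Snrp genes 19, and the 2 U2AF promoters had 25 and 40. Across the 45 genes the number of CG pairs and the called length went together weakly (Spearman rho 0.37, a description across genes of the same 12 libraries), and across all 8366 genes less so (rho 0.13).

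Short motifs were searched in the same 300 bases on both strands, with a list chosen after the data were seen. CCGGAAG, the core bound by ETS family factors, lay in 6 of the 7 SF3 genes with a promoter (Sf3a1, Sf3a2, Sf3a3, Sf3b2, Sf3b3 and Sf3b6). It lay in 4 of 11 SR promoters (36.4%), 4 of 10 Snrp promoters (40%), 2 of 19 hnRNP promoters (10.5%) and 0 of 2 U2AF promoters. That made 16 of the 49 genes in all (32.7%), against 11.9% of all protein-coding promoters and 20.6% of those with a region in all 12 libraries. CCAAT, the core bound by NF-Y, lay in 13 of 19 hnRNP promoters (68.4%), 4 of 11 SR promoters (36.4%) and 2 of 7 SF3 promoters (28.6%), in 49.0% of the 49, in 39.2% of all and in 39.5% of those with a region in all 12 libraries. TGACGT, part of the cAMP response element, lay in 24.5% of the 49, 8.71% of all and 12.6% of those with a region in all 12. GGGCGG, the core bound by SP1, lay in 67.3% of the 49 and 46.3% of all, but in 66.0% of those with a region in all 12, close to the 49. TATAAA lay in 14.3% of the 49, 13.3% of all and 6.61% of those with a region in all 12. The other motifs searched, CACGTG, AAGATGGC and GCGCATGC, lay in 10.2%, 4.08% and 4.08% of the 49, in 7.91%, 3.21% and 3.60% of all and in 10.7%, 5.14% and 6.16% of those with a region in all 12. The motifs can overlap at their ends, as CCGGAAG and AAGATGGC can by AAG, and a match says only that the letters are there. The CCGGAAG matches of the SF3 genes are shown with the bases around them, motif in capitals, on the strand of the gene. Sf3a1 lies at chr11:4160337-4160363, Sf3a2 at chr10:80798649-80798675, Sf3a3 at chr4:124714761-124714787, Sf3b2 at chr19:5295452-5295478, Sf3b3 at chr8:110847016-110847042 and Sf3b6, which has 2 matches, at chr12:4817528-4817554 and chr12:4817513-4817539. In Sf3a3, Sf3b3 and the further match of Sf3b6 the motif reads on the opposite strand.
Sf3a1: gagggcgggaCCGGAAGtgctcccgcg
Sf3a2: gcctttgctcCCGGAAGggatcgcttc
Sf3a3: ccccaagacaCTTCCGGgacacgcgga
Sf3b2: gattacgcaaCCGGAAGtttctggaag
Sf3b3: ccggtgggcgCTTCCGGgcttgcgagg
Sf3b6: ggtccgcaatCCGGAAGcgttctggag
Sf3b6 further match: cgccccgcccCTTCCGGtccgcaatcc

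The acetylated domains began upstream of the start and reached farther into the gene. Over the 45 genes with a known strand and a region at the 5′ end, the domain ran at the median from -1097.5 bp (before the start) to 1811 bp after it, against -777.5 to 1263 bp over 7847 such genes. The highest summit lay downstream of the start in 41 of the 45 (91.1%, against 78.7% of all), and most of the called length lay downstream in 38 (84.4%, against 77.5%). The median share of the called length that lay downstream went the other way, 62.1% against 65.9% over all. In steps of 100 bp, the number of libraries with a peak dipped by 1 or more in 30 of the 45 genes within the 500 bp upstream. A dip has more libraries again on both of its sides. Within the 500 bp downstream of the start 1 gene had such a dip. Upstream dips of 6 or more libraries were found in only 4 genes, Hnrnpc, Snrpd2, Hnrnpa3 and Hnrnpd. How many of all genes have such dips was not counted. The peaks beyond an upstream dip, looked for up to 6000 bp before the start, need not belong to the same domain. Hnrnpc, which binds uridine tracts, had a peak in 1 library at 200 bp upstream and in 12 at the start. Hnrnpa3, a relative of Hnrnpa1, had a peak in 3 libraries at 100 bp upstream, and Hnrnpd, also known as AUF1, in 6 at 200 bp upstream.

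**Figure D1:**
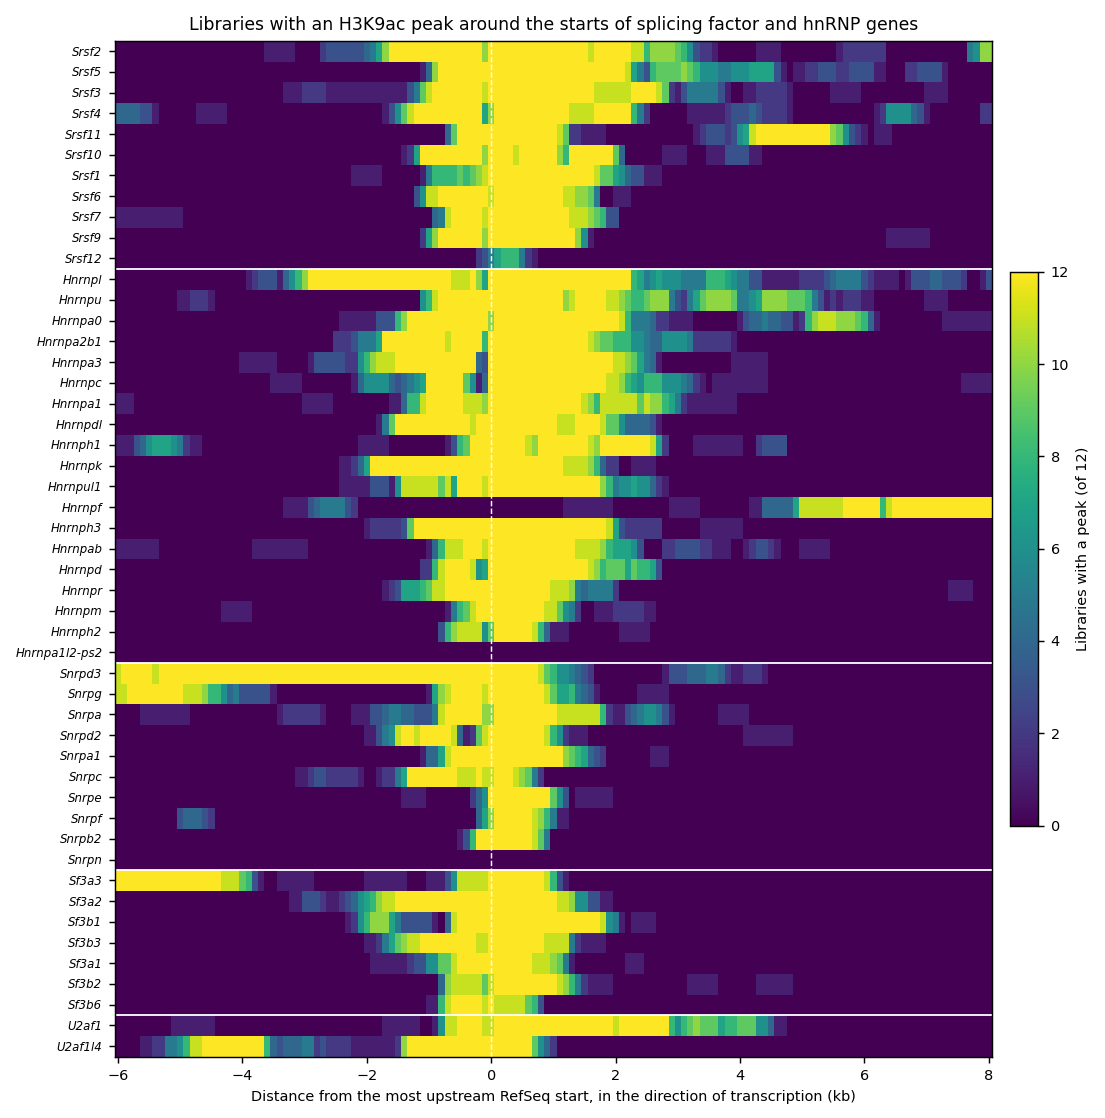
Number of the 12 libraries with a peak at each 100-bp step (colour, 0 to 12), by distance from the most upstream RefSeq start in kb, for the 49 genes with a start in the promoter table, grouped by family from SR proteins (top) to U2AF (bottom). Most rows are at 12 libraries around the start and farther downstream than upstream, while Hnrnpf begins inside the gene, Srsf12 stays at 8 or fewer and Hnrnpa1l2-ps2 and Snrpn are empty at the start shown.

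A region's tags cannot always be given to 1 gene. The regions of 25 of the 52 tested genes (48.1%) also reached an end of another protein-coding gene, against 35.4% of all 10317 genes with a region in all 12 libraries. In 13 of the 25 the neighbour starts on the opposite strand, facing away, with 21 to 772 bp between the starts. The pairs include Hnrnpa2b1 with Cbx3 (722 bp) and Hnrnpa1 with Cbx5 (545 bp), both neighbours encoding heterochromatin protein 1 forms, Srsf11 with Lrrc40 (76 bp), Snrpa with BC024978 (21 bp), Sf3a1 with Ccdc157 (61 bp), Sf3a2 with Plekhj1 (109 bp), Hnrnpk with Rmi1 (131 bp), Snrpd3 with Gucd1 (70 bp), U2af1l4 with Psenen (136 bp) and Hnrnph2 with Gla (174 bp). The 25 genes with a shared region had a median of 133 CPM, and the 27 without had 101 CPM.

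The 52 genes tested are those whose region with the most tags had a peak in all 12 libraries, which leaves out Srsf12, Hnrnpf, Snrpn and Hnrnpa1l2-ps2. Their domains were long and dense. The median called length, the summed length of a library's peaks in the region, was 2929 bp, against 2116 bp over the 10317 genes, and 39 of 52 lay above that median. The median level was 125 CPM against 75.3 CPM. Per length, which allows a comparison between genes, it was 43.8 CPM per kb of called length against 35.2, with 43 of 52 above. The median coefficient of variation over the 12 libraries was 11.2%, against 14.7% over all genes. Higher counts vary less in proportion, and the genes were not matched by level for this. Tags are counted only inside called peaks, so a longer call and a higher count go together.

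The SR protein genes formed an even group. All 10 tested lay above the CPM median of all genes, from 85.3 CPM (Srsf9) to 250 CPM (Srsf2), with a median called length of 3037 bp and a median density of 47.2 CPM per kb. Srsf2, which encodes SC35, held 218 to 282 CPM in d22 (median 248) and 230 to 288 CPM in pbs (median 250), over a region at chr11:116849467-116855889 that covers both ends of this short gene and also the ends of Mfsd11 and Mettl23. Its summit lay at -409.5 bp from the start at the median, on the side of Mfsd11. Srsf4, whose product has a long RS domain, had the densest SR domain, at 58.5 CPM per kb. Srsf9 varied least of all 52 genes, with a coefficient of variation of 5.63%.

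The hnRNP genes had the longest domains of the larger families and were the most often split. Their 19 tested genes had a median of 3810 bp, 163 CPM and 1.75 peaks per library, against 1.33 peaks over all genes. Hnrnpl, which binds CA-rich RNA, had 283 to 362 CPM in d22 (median 293) and 293 to 362 CPM in pbs (median 323), spread over 3.58 peaks per library in chr7:28806956-28817397. Hnrnpl's called length was 5817 to 9839 bp, and its summit lay at -1114.5 bp from the start at the median. Hnrnpu, a nuclear scaffold protein also called SAF-A, had 232 to 278 CPM in d22 (median 268) and 233 to 320 CPM in pbs (median 292) over 5346 bp on average. Hnrnpa3 followed with 200 to 242 CPM in d22 (median 232) and 183 to 284 CPM in pbs (median 233). At the low end stood the X-linked Hnrnph2, with 13.3 to 36.4 CPM in d22 (median 31.1), 26.4 to 47.4 CPM in pbs (median 34.6) and the lowest density of all 52 genes, 21.9 CPM per kb.

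The Snrp genes were short and modest, apart from 1 gene. The 11 tested had a median of 2110 bp and 79.7 CPM, with 6 above the CPM median of all genes and 5 above the length median. All 5 of the shortest domains belonged to them: Snrpf (1081 bp), Snrpb2 (1224.5 bp), Snrpe (1246 bp), Snrpd1 (1337 bp) and Snrpd2 (1340 bp). Except for Snrpb2, a U2 snRNP protein, these encode proteins of the Sm ring. Their density was not low throughout: Snrpe, at chr1:133609049-133610627, had 54.0 CPM per kb, and Snrpf had 24.6. The region taken for Snrpd2, chr7:19149536-19151437, closely follows another region at the same start, chr7:19147828-19149507. That other region also had a peak in all 12 libraries, with a mean called length of 1143 bp. The place of Snrpd2 among the 5 shortest therefore rests on keeping these regions apart. Snrpd3, also a ring protein, had the highest level and the longest domain of all 52 genes, with 319 to 455 CPM in d22 (median 423), 421 to 512 CPM in pbs (median 456) and 7140 to 11390 bp. Of the length called at Snrpd3 only 14.0% lay downstream of its start, and the rest lay on the side of Gucd1, whose start is 70 bp away, so the level is that of the shared region (chr10:75508256-75519735).

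The SF3 genes lay close to the medians of all genes in CPM and called length. The 9 of them encode parts of the complexes that hold U2 snRNP on the branch point. They had a median of 75.04 CPM and 2132 bp, and 6 of the 9 were above the median of all genes in density. Sf3a2 had the highest density of all 52 genes, 62.2 CPM per kb, in a region it shares with Plekhj1 and Dot1l. Sf3b1, the branch point contact protein, had 52.5 CPM per kb, and Sf3b6, which sits at the branch adenosine, had 26.7. The 3 U2AF genes were all above the medians of all genes. U2af2, the large subunit, had 202 CPM, U2af1, the small subunit, 194 CPM, and U2af1l4, a relative of the small subunit, 104 CPM. U2af1 was called over 3685 to 5466 bp, with 83.7% of that length downstream of the start.

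**Figure D2:**
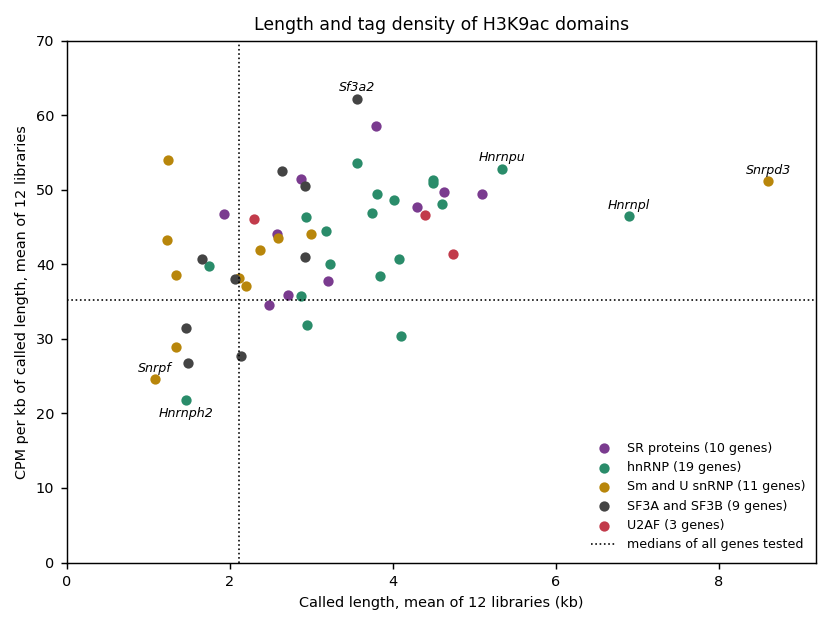
Mean called length (kb) against mean CPM per kb of called length for the 52 genes tested, coloured by family, with the medians of 10317 genes as dotted lines (2116 bp and 35.2 CPM per kb). Of the 52 points 39 lie to the right of the length median and 43 above the density median, Snrpd3 and Hnrnpl lie far to the right and Hnrnph2 and Snrpf at the lower left.

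No difference in tags between d22 and pbs was called at any of the 52 genes. None passed an adjusted p of 0.05 in the edgeR quasi-likelihood test with Benjamini-Hochberg adjustment over all 12375 regions, where 1.01% passed, and DESeq2 and limma-voom also called 0 of the 52. At an unadjusted p under 0.05 there were 2 genes of 52, against 10.9% of all regions. In none of the 52 genes did the CPM of the groups separate, against 1.33% of all regions. The median log2 difference over the 52 was -0.01, against 0.00 over all regions, with 22 positive and 30 negative. The standard error was 0.08 to 0.21 on the log2 scale, and the 95% interval lay within 0.5 of 0 in 48 of the 52 genes. Both rest on the spread between libraries, which could be technical only, so they do not bound a difference between mice. They also leave out the choice of scaling, which with library totals alone moved the median of all regions to -0.22. The values by library are in the plot of CPM, and the intervals in the plot of differences.

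**Figure D3:**
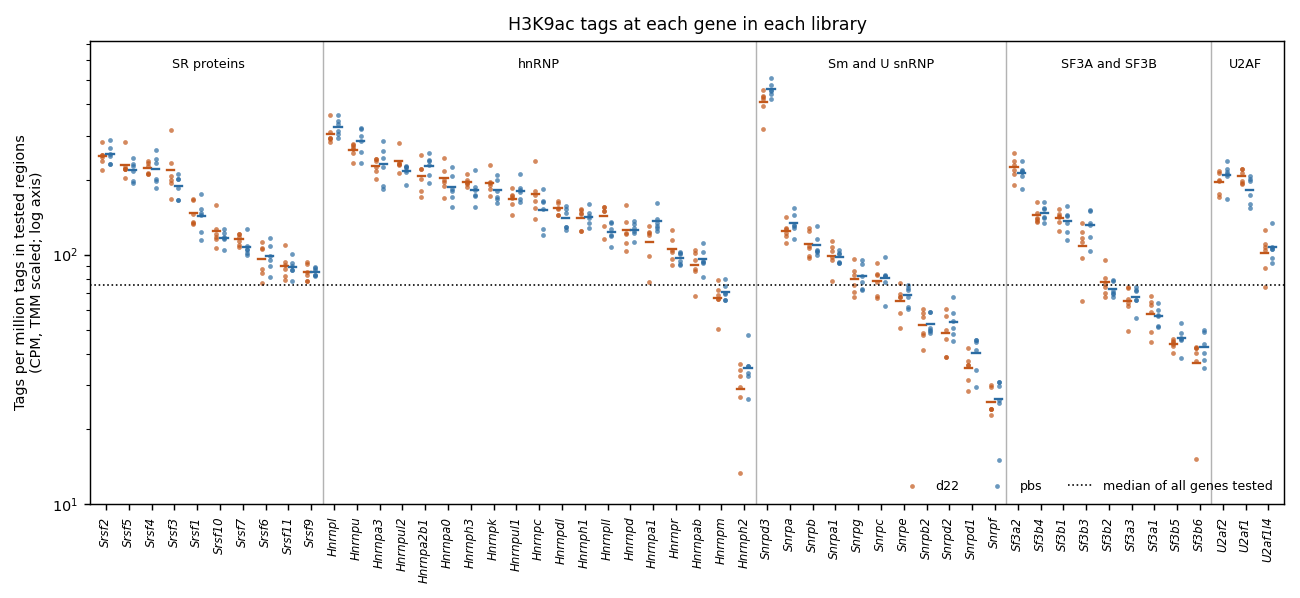
CPM (log axis) at each of the 52 genes in each d22 (orange) and pbs (blue) library, with short lines at the group means and the median of 10317 genes, 75.3 CPM, as a dotted line. Points of both colours overlap at every gene, and single d22 points lie far off at Hnrnph2, Sf3b6 and Srsf3.

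The 2 genes under the unadjusted threshold were both hnRNP genes and went in opposite directions. Hnrnpa1, which encodes a well-studied splicing repressor, held 77.8 to 130 CPM in d22 (median 121) and 125 to 162 CPM in pbs (median 132). In Hnrnpa1, 5 of 6 d22 libraries lay below the lowest pbs library, and the log2 difference was -0.27 ± 0.11 (SE, n = 6 and 6; edgeR, adjusted p = 0.373). The region, chr15:103238761-103244382, is shared with Cbx5. Hnrnpll, a regulator of CD45 splicing in lymphocytes, held 115 to 156 CPM in d22 (median 149) and 107 to 135 CPM in pbs (median 123). In Hnrnpll, 4 of 6 d22 libraries lay above the highest pbs library, and the log2 difference was 0.20 ± 0.09 (SE, n = 6 and 6; edgeR, adjusted p = 0.431). The Hnrnpll region is shared with 4933407O12Rik.

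At the other 8 of the 5 highest and 5 lowest differences the libraries of the titles overlapped more. On the positive side, Srsf3, the smallest SR protein, held 168 to 317 CPM in d22 (median 203) and 165 to 211 CPM in pbs (median 193), a log2 difference of 0.21 ± 0.13. Hnrnpc held 139 to 238 CPM in d22 (median 169) and 120 to 182 CPM in pbs (median 157), a difference of 0.21 ± 0.13. In both genes the groups overlap and the highest d22 library was replicate 4. U2af1 held 192 to 221 CPM in d22 (median 205) and 154 to 207 CPM in pbs (median 185), a difference of 0.18 ± 0.09, with 3 d22 libraries above all pbs libraries. Hnrnpdl, a relative of Hnrnpd, held 144 to 164 CPM in d22 (median 153) and 126 to 157 CPM in pbs (median 138), a difference of 0.13 ± 0.08.

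On the negative side replicate 4 of d22 was the lowest d22 library in every case, Hnrnpa1 included. Hnrnph2, with the values given above, differed by -0.26 ± 0.21, and replicate 4 held 14 tags there. Sf3b3, the large scaffold of SF3B, held 65.5 to 133 CPM in d22 (median 115) and 103 to 150 CPM in pbs (median 133), a difference of -0.25 ± 0.14. Sf3b6 held 15.2 to 42.8 CPM in d22 (median 41.3) and 35.1 to 49.9 CPM in pbs (median 42.2), a difference of -0.19 ± 0.19, with 16 tags in replicate 4. Snrpd1 held 28.5 to 42.2 CPM in d22 (median 36.0) and 29.4 to 45.7 CPM in pbs (median 43.0), a difference of -0.18 ± 0.15. Adjusted p-values for these 8 genes were 0.476 to 0.781 in the same edgeR test. Over these 5 highest and 5 lowest differences, replicate 4 was the lowest or highest d22 library in 8 genes, and it was so in 35 of all 52 (67.3%). For the other d22 libraries that share was 21.2% (replicate 1) to 30.8% (replicate 2). Within pbs it was 17.3% (pbs replicate 5) to 46.2% (pbs replicate 3). Without d22 replicate 4 all 10 differences were closer to 0: Sf3b6 went to -0.05, Hnrnph2 to -0.13, Sf3b3 to -0.15, Hnrnpa1 to -0.19, Srsf3 to 0.10 and Hnrnpc to 0.12. The genes were picked for large differences, so leaving out their extreme library favours such a shift.

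**Figure D4:**
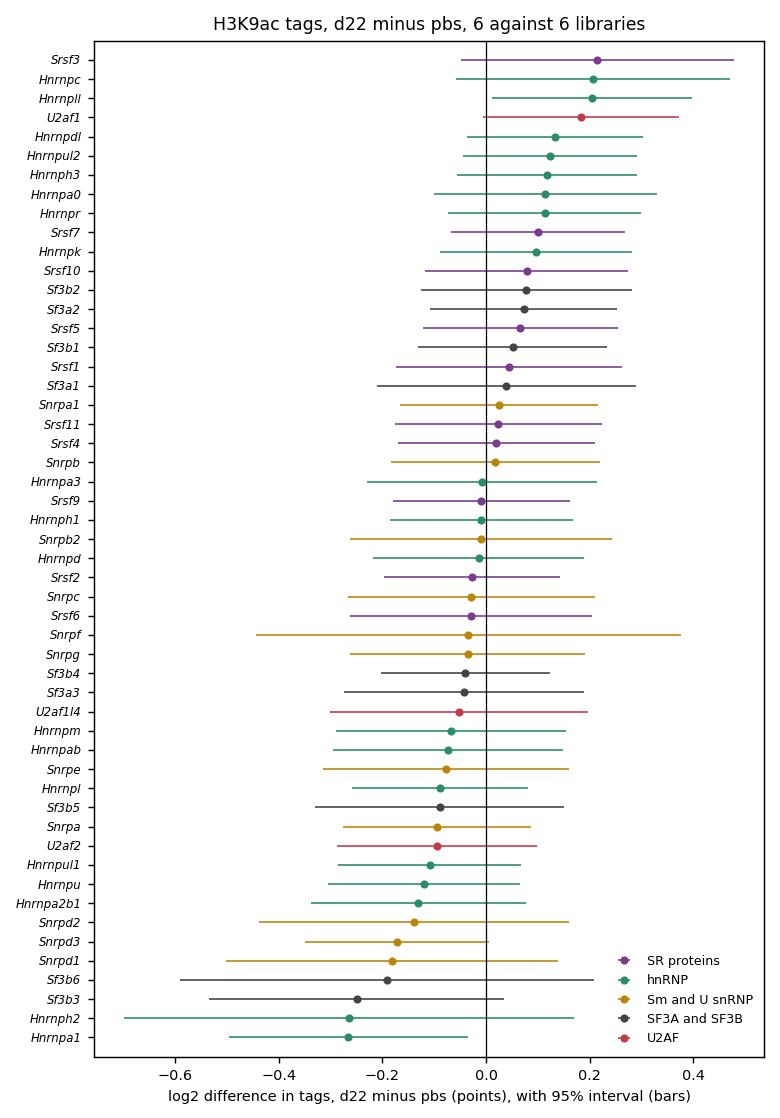
log2 difference in tags, d22 minus pbs, with its 95% interval for each of the 52 genes, ordered by size and coloured by family. The points run from -0.27 (Hnrnpa1) to 0.21 (Srsf3), and only the bars of Hnrnpa1 and Hnrnpll leave out 0.

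By family, the Snrp genes leaned to the negative side, 9 of 11, with a median of -0.04 that is small beside the standard errors. The SR genes leaned to the positive side, 7 of 10, with a median of 0.03. The medians were -0.01 for the 19 hnRNP genes, -0.04 for the 9 SF3 genes and -0.05 for the 3 U2AF genes. No family held a gene that passed the adjusted threshold. These signs are relative to the TMM scaling: with library totals as the only scaling the median of all regions moved to -0.22, and Srsf3, Hnrnpc, Hnrnpll, U2af1 and Hnrnpdl turned negative.

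Called length and tag density gave no call at these genes. In the limma test of log2 called length, 0 of the 52 genes passed, as did 0% of all regions. Under an unadjusted p of 0.05 lay 5 genes, against 6.81% of all regions: Hnrnpa2b1 (-0.35), Hnrnpul1 (-0.29), Hnrnpu (-0.32) and Hnrnpa1 (-0.28) on the shorter side in d22 and Srsf3 (0.26) on the longer, with adjusted p-values of 0.537 to 0.730 (limma). The median log2 difference in called length was -0.08 in the 52 genes and in all regions alike. For CPM per kb, 0 of 52 passed, against 0.0404% of all regions. Hnrnpll, at 0.36 (limma, adjusted p = 0.861), was the only gene under an unadjusted p of 0.05, against 5.54% of all regions.

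The authors' fold enrichment over input gave another picture than the tags. When the fold enrichment of the highest peak was tested in place of tags (log2, limma, adjusted over 12375 regions), 12 of the 52 genes passed, against 20.2% of all regions. Lower in d22 were 8 genes, against 18.9% of all regions, and higher were 4, against 1.34%. The median log2 difference was -0.26 in the 52 genes and -0.30 in all regions. Hnrnpa2b1, an RNA-binding protein related to Hnrnpa1, had 29.2-fold to 56.3-fold enrichment in d22 (median 34.2) and 63.5-fold to 98.2-fold in pbs (median 73.4), with no overlap between the groups. Its log2 difference in fold enrichment was -1.08 ± 0.18 (SE, n = 6 and 6, adjusted p = 1.61e-05 with limma), while its log2 difference in tags was -0.13.

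The genes with higher fold enrichment in d22 were Hnrnph3, Hnrnpll, Hnrnpu and Snrpa1. The regions of Hnrnph3 and Hnrnpll also reach an end of Pbld2 and of 4933407O12Rik, respectively. Hnrnph3 had 42.0-fold to 74.5-fold enrichment in d22 (median 66.2) and 23.5-fold to 47.8-fold in pbs (median 29.6), a log2 difference of 0.98 ± 0.19 (adjusted p = 0.00012, limma) beside 0.12 in tags. Hnrnpll had a log2 difference of 0.78 ± 0.18 in fold enrichment (adjusted p = 0.00146, limma), in the same direction as its tags. In Hnrnpu the directions were opposite, 0.60 in fold enrichment and -0.12 in tags. Snrpd3 (-0.94), U2af1l4 (-0.74), Hnrnpm (-0.64), Sf3b3 (-0.60), Hnrnpa3 (-0.58), Sf3a2 (-0.58) and Srsf11 (-0.55) were the other genes with lower fold enrichment in d22. The fold is taken over the local level of a pooled input that differs between the titles, so a difference in input and a difference in H3K9ac cannot be told apart in these values.

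**Figure D5:**
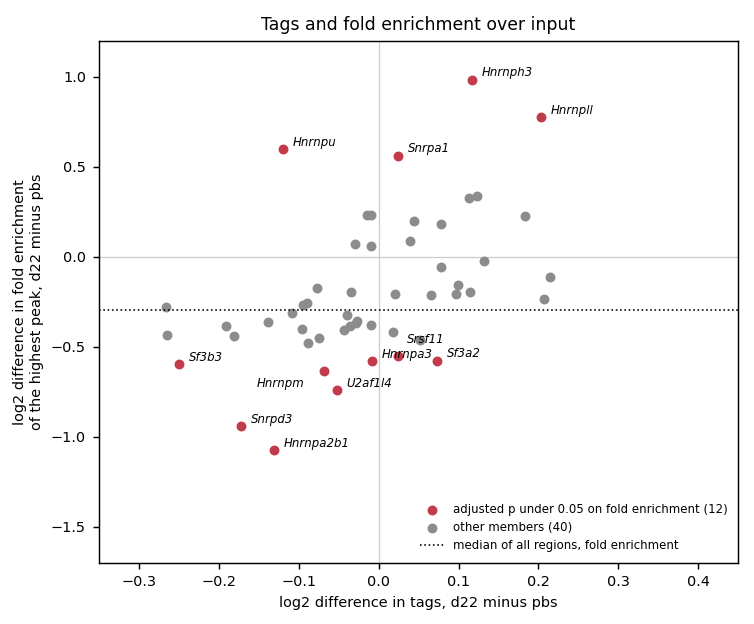
log2 difference in fold enrichment of the highest peak against log2 difference in tags, d22 minus pbs, for the 52 genes, with the 12 that passed on fold enrichment in red and the median of all regions, -0.30, as a dotted line. The named genes spread from -1.08 to 0.98 on the fold enrichment axis and from -0.25 to 0.20 on the tag axis.

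Further regions at the ends of these genes gave no call. There were 6 such regions with a peak in all 12 libraries, 5 of them at ends shared with the neighbours Cox20 (Hnrnpu), Ech1 (Hnrnpl), Ccdc97 (Hnrnpul1), Epn1 (U2af2) and Pacs1 (Sf3b2), and the sixth at the start of Snrpd2, beside Qpctl. The region at the 3′ end of Hnrnpu, chr1:178316894-178321540, had the smallest p of them, with a log2 difference of -0.28 (edgeR, adjusted p = 0.247).

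The other splicing genes gave no call either. In a list of 150 genes (other U snRNP proteins, LSm proteins, the catalytic core, SR-related proteins, SR kinases, exon junction and Sm assembly factors and other regulators), 149 were found, 141 had a peak in all 12 libraries at an end and 144 were tested. Of these 0 were called higher and 0 lower, 14 (9.72%) had an unadjusted p under 0.05, against 10.9% of all regions, and the median log2 difference in tags was -0.01, with 64 positive and 80 negative. The 5 with the smallest p were Rnps1, an exon junction protein (-0.39 ± 0.11, adjusted p = 0.128), Lsm2, part of the ring on U6 (-0.24 ± 0.08, adjusted p = 0.217), Srrm1, a splicing coactivator (0.24 ± 0.08, adjusted p = 0.225), Pspc1, a paraspeckle protein (0.28 ± 0.10, adjusted p = 0.253), and Magohb, of the exon junction core (0.40 ± 0.15, adjusted p = 0.292), all by edgeR's quasi-likelihood test.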

How the data were processed

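H3K9ac was measured by ChIP-seq in 12 libraries. The submitters' processing notes name CASAVA 1.8, Novoalign, MACS 1.4.2 and the build mm10. Each library was called separately at a p-value cutoff of 1e-05, per the file headers. From the authors' deposited tables were taken the raw count of tags per peak, the score (a log10-scaled p-value, the authors' own per peak) and the fold enrichment, a ratio over the local input. The input libraries and bed files were not analysed here.

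Overlapping peaks were merged into 57979 consensus regions, 12375 with a peak in all 12 libraries. Tags were summed per library and region, and tested only in those, since a peak that was not called leaves its tags unknown. Tests were edgeR 4.0.16 (quasi-likelihood, robust, TMM) for tags, limma 3.58.1 for log2 called length and log2 CPM per kb, and Fisher's exact test for libraries with a peak, in R 4.3.3 and scipy 1.17.1, with Benjamini-Hochberg adjustment at 0.05 over all regions. Standard errors of tag differences are the log2 difference divided by the root of F. The edgeR step was tested on simulated data. A gene was represented by the region with the most tags at its ends. Precision is limited by depth: 14 to 1294 tags per library at the 52 genes tested.

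Every gene of the families could be named. CPM by group and log2 differences were given for the 5 highest and 5 lowest tag differences, and CPM by group for the 5 highest in CPM. Selected values were given for the 5 longest and 5 shortest, and for those with a peak in 1 to 11 libraries. The same holds for the 5 other splicing genes of smallest p. The genes, lists and rules were chosen with earlier results of these data known. Gene ends are those of RefSeq GRCm38.p6, the assembly of mm10. Marker and splicing gene lists were written from general knowledge. Alternatives were another scaling, DESeq2 1.42.0, limma-voom, filters, peak and window settings, a replicate block and leaving out each library.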

Additional observations from a re-analysis of the deposited data

Results flagged for a closer look

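In 8 of 104 groups of 6 libraries (each of the 52 genes in d22 and in pbs), 1 library lay far from the other 5 by Dixon's criterion, which chance meets in about 1 of 20 groups. In d22 the library was replicate 4 each time. It was highest at Hnrnpl (362 CPM, next library 309), Srsf5 (283, next 225) and Hnrnpul2 (280, next 236) and lowest at Sf3b6 (15.2, next 37.4). This is the d22 library with the fewest tags, 6343891, and the most peaks. In pbs, replicate 3 was highest at U2af1l4 (134 CPM, next 108) and Srsf7 (126, next 108), replicate 5 was lowest at Snrpf (15.04, next 25.5), and replicate 6 was lowest at Hnrnpul2 (190, next 214). Replicate 3 is the pbs library with the fewest tags, 6385610. The part of depth in these values was not tested.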

How the results depend on the processing

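None of the genes tested (52, and 7, 45, 47 or 50 where a setting left fewer) passed on tags, called length or tags per kb under the alternatives run, except with fold enrichment of the highest peak in place of tags, which gave 12. Over all regions the count on tags, 125, moved to 272 with DESeq2, 454 with library totals as the only scaling (26 higher and 428 lower in d22, against 56 and 69, with a median shift of -0.22), 2503 with fold enrichment (166 and 2337) and 0 when only the 2599 regions of a single peak per library were kept. Leaving out each library gave 64 to 139 regions on tags, with the lowest counts without pbs replicate 3 (64), pbs replicate 4 (69), d22 replicate 6 (70), pbs replicate 5 (70), d22 replicate 2 (72) and pbs replicate 2 (76). It gave 0 to 35 on called length (35 without d22 replicate 1). Same-numbered libraries deviated together weakly or not at all (correlations of -0.01 to 0.16). Whether the numbers pair them is not known from this, and the labels do not say. With a replicate block 128 regions and 0 of the genes passed on tags.

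The number of genes with a peak in all 12 libraries, 51, was 49 with a window of 500 bp, with scores of at least 100 or with 500 bp of overlap, and 52 with 2500 bp. It was 54 when any RefSeq start also counted, an alternative chosen after seeing the data. Occupancy gave 0 regions throughout, in a test that could hardly call any with groups this small.

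Of the 203 values of the 10 genes with the 5 highest and 5 lowest tag differences under 21 alternatives, 193 kept sign and side of the threshold, 8 changed sign and 2 passed the threshold. With library totals Srsf3 went to -0.011, Hnrnpc to -0.0059, Hnrnpll to -0.0086, U2af1 to -0.029 and Hnrnpdl to -0.10. With fold enrichment Srsf3 went to -0.11, Hnrnpc to -0.24 and Hnrnpdl to -0.024, while Hnrnpll (0.78) and Sf3b3 (-0.60) passed. The cause was not tested.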
